A study of Oncorhynchus mykiss with 18 samples.

Results

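The comparison of 6.22 with 1.57 ng/L of 17α-ethinylestradiol (EE2) was examined across all transcripts in 6 RNA-seq libraries of rainbow trout (Oncorhynchus mykiss) alevins, out of 18 libraries in the series. The libraries were chosen by their labels: the 3 with a measured concentration of 6.22 ng/L (replicates A, B and C) were set against the 3 labelled 1.57 ng/L (A, B and C). Alevins are hatched trout that still carry their yolk sac. Both groups were exposed through the water for 96 h from hatching, at 14 °C in flow-through tanks, and both were sampled whole at 4 days post-hatch as pools of 3 alevins. EE2 is the synthetic estrogen of oral contraceptives, and the series title sets out a short embryo assay for a transcriptomic benchmark dose. No solvent library entered the test, so the result is the difference between a low and a middle exposure. The other groups, which appear only as levels, were the solvent (0.01% DMSO), 1.13, 16.3 and 55.1 ng/L, and a higher concentration named in the design text was not analysed here. Whether the 3 pools of a group shared a tank is not stated, so a p-value here covers only the spread from pool to pool, part of which may be technical.

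In egg-laying vertebrates, estrogen acts on the liver through nuclear estrogen receptors and switches on the genes of vitellogenins, the yolk precursors, and of zona pellucida proteins, which build the egg envelope. Males and juveniles carry these genes silent or nearly so, and for that reason they serve as exposure markers of estrogens in fish. The skeleton of an alevin is being laid down over the same days: chondrocytes secrete collagens and proteoglycans, and osteoblasts secrete and mineralise a matrix rich in type I collagen.

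The 2 groups also differed in measures that are not concentration. Library totals were 15365201 to 16164585 estimated counts at 6.22 ng/L, against 23837786 to 32851570 at 1.57 ng/L, and 57080 to 58953 transcripts had at least 1 count at 6.22 ng/L, against 61358 to 64014 at 1.57 ng/L. The gap between a transcript's length and the effective length that kallisto assigned to it varied between transcripts in all 6 libraries. Here and below this gap was taken only over transcripts longer than 1000 bases. Its median was 199.6 to 208.5 bases at 6.22 ng/L, against 235 to 243.2 bases at 1.57 ng/L. The ranges of the groups do not overlap in any of these measures, so concentration, depth and the effective-length gap cannot be told apart in the comparison itself. Across 37499 genes, Pearson correlations of log2 CPM were 0.883 to 0.884 among 6.22 ng/L libraries, 0.909 to 0.921 among 1.57 ng/L libraries and 0.849 to 0.886 between the groups, where genes do not count as independent replicates. The first principal component, with 35.1% of the variance, placed the 6.22 ng/L libraries at -37.4, -50.2 and -116.8 and the 1.57 ng/L libraries at 75.6, 71.3 and 57.5. On the second (19.9%), 6.22 ng/L replicate B at -112.4 and replicate C at 66.4 lay farthest apart. Markers of the tissues of a whole fish were present in both groups: summed skeletal muscle genes made 25481 to 36939.8 CPM at 6.22 ng/L, against 24233 to 30635 CPM at 1.57 ng/L, and erythrocyte genes 931 to 1274 CPM at 6.22 ng/L, against 985 to 1395 CPM at 1.57 ng/L.

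By edgeR's quasi-likelihood test with Benjamini-Hochberg adjustment, 2090 of 42856 tested genes passed an adjusted p of 0.05 (4.88%). Of these, 855 were higher at 6.22 ng/L (2.0% of those tested) and 1235 were lower (2.88%), and 228 of the higher and 586 of the lower changed by more than 2-fold. Here a gene is a gene sum or a single transcript that matched no gene: 265 of the 2090 had a symbol, 734 were gene sums without one, and 1091 were single transcripts. The median log2 fold change over all tested genes was 0.00, with 49.6% above 0. In 32.1% of the tested genes the 3 libraries of one group all lay above the 3 of the other. Among the 265 called genes with a symbol, 264 had no such overlap and a mean of at least 1 CPM, so a lack of overlap adds little to a call. The adjusted p-values were close together, with 0.0119 as the smallest, and the count rested on single libraries: 173 genes passed without 6.22 ng/L replicate C, 196 without 1.57 ng/L replicate C, 276 without 6.22 ng/L replicate B and 668 without 6.22 ng/L replicate A. Without 1.57 ng/L replicate A no gene passed (8135 at an unadjusted p under 0.05, smallest adjusted p 0.0583 by edgeR), and without 1.57 ng/L replicate B none did (8277, smallest 0.0562), where 10213 had an unadjusted p under 0.05 with all 6 libraries. DESeq2 called 6495 genes, 2089 of them among the 2090. Every call reported below is one of the fit with all 6 libraries, and none of them was made when 1.57 ng/L replicate A or B was left out.

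**Figure D1:**
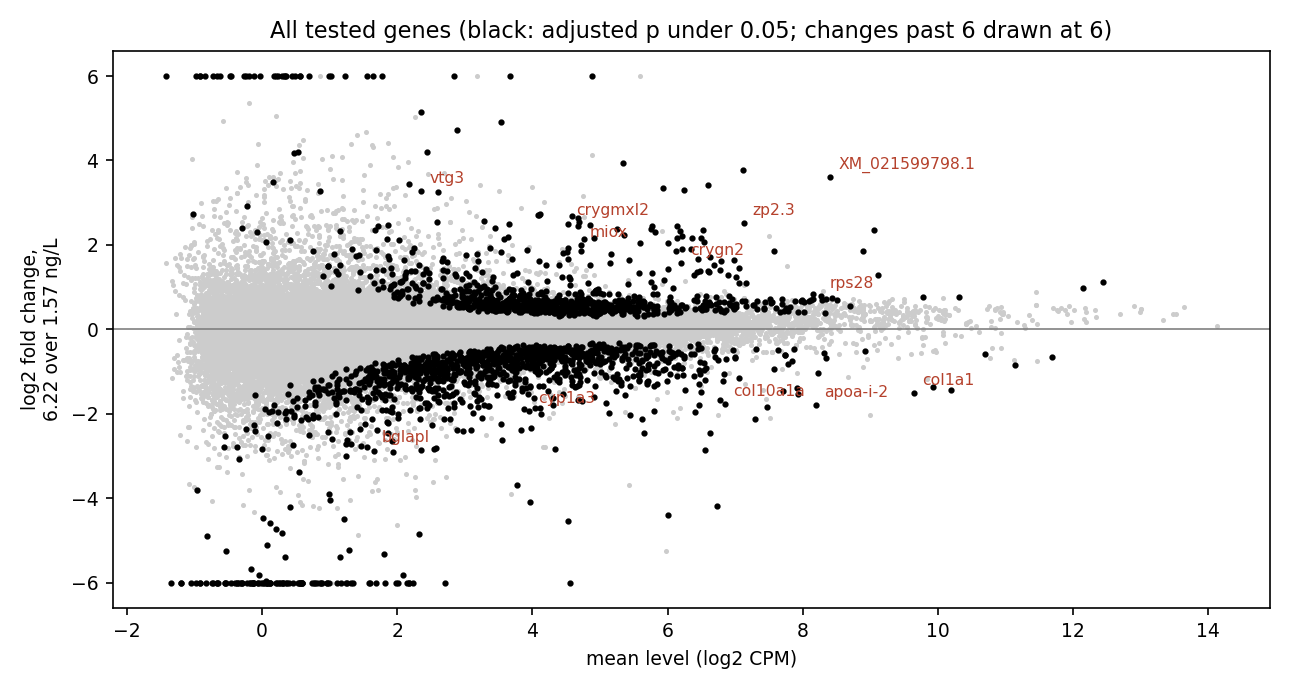
Log2 fold change (6.22 over 1.57 ng/L) against the mean level (log2 CPM) for the 42856 tested genes, with the 2090 past the adjusted p of 0.05 in black and changes past 6 drawn at 6. The egg protein genes zp2.3 and vtg3 stand high above 0, and the labelled genes col1a1, col10a1a and apoa-i-2 stand below it at high mean levels.

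Among the genes with a symbol that passed the threshold, at a mean of at least 1 CPM and with no overlap of the groups, the egg protein genes vtg3 and zp2.3 had the largest rises. Of 4 genes matched as egg envelope or yolk genes, 3 were tested and 2 rose, with a median log2 fold change of 2.51 beside 0.00 over all genes. The envelope gene zp2.3 had 225, 155 and 339 CPM at 6.22 ng/L, against 39.9, 53.1 and 33 CPM at 1.57 ng/L. Every 6.22 ng/L library lay above every 1.57 ng/L library (log2 fold change 2.51 ± 0.33, adjusted p = 0.021, here and below ± SE). The vitellogenin gene vtg3, which encodes a yolk precursor, had 7.71, 7.61 and 12.6 CPM at 6.22 ng/L, against 0.866, 0.893 and 1.11 CPM at 1.57 ng/L. These groups did not overlap either (log2 fold change 3.27 ± 0.27, adjusted p = 0.0152). The envelope gene zp3d.1 had 1.76, 1.12 and 1.78 CPM at 6.22 ng/L, against 1.48, 1.09 and 1.14 CPM at 1.57 ng/L, with overlapping groups (log2 fold change 0.33 ± 0.31, adjusted p = 0.569), and zp3d.2 was below the filter on low counts. Over the 15 alternatives, zp2.3 ran from 2.18 to 2.75 and vtg3 from 2.99 to 3.40 on the log2 scale. Whole alevins were sequenced, so that more or fewer cells of a type and more or less RNA per cell cannot be told apart.

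At the estrogen receptors, which bind the hormone and carry its signal to the genes, no member passed the test. The gene esr1, which encodes the nuclear receptor ERα, had 25.6, 17.2 and 29.5 CPM at 6.22 ng/L, against 11.5, 14.4 and 13.9 CPM at 1.57 ng/L. All 3 libraries at 6.22 ng/L were above the 3 at 1.57 ng/L, yet the gene stood short of the threshold (log2 fold change 0.86 ± 0.21, adjusted p = 0.0673). It passed in only 3 of the 15 alternatives. These were DESeq2 (adjusted p = 0.000278) and the models of 18 and of 12 libraries (adjusted p = 0.0199 and 0.0434 by edgeR). All 3 also called more genes in total (6495, 5106 and 4264, against 2090). The mean level of esr1 was 2.82 ± 0.586 CPM in solvent, 6.66 ± 1.22 at 1.13, 13.3 ± 1.55 at 1.57, 24.1 ± 6.3 at 6.22, 34.7 ± 8.78 at 16.3 and 37.9 ± 4.34 at 55.1 ng/L (SD, n = 3 each). Of the β receptors, erb2 had a log2 fold change 0.43 ± 0.20, adjusted p = 0.256, and esr2a a log2 fold change -0.50 ± 0.33, adjusted p = 0.412. The membrane receptor gper1 had a log2 fold change 0.34 ± 0.31, adjusted p = 0.57. The related orphan receptor esrrd (log2 fold change 0.28) and eral1 (log2 fold change -0.34), a GTPase gene taken in only for the shape of its symbol, did not pass.

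Genes without a symbol also rose by large amounts. The 4 described here were chosen after their values were seen, and the reference gives no name for any of them. LOC100135907 had 246, 168 and 364 CPM at 6.22 ng/L, against 17.9, 28.7 and 10.3 CPM at 1.57 ng/L (log2 fold change 3.78 ± 0.46, adjusted p = 0.0196). LOC100135906 had 169.5, 135 and 230.0 CPM at 6.22 ng/L, against 10.3, 28.9 and 10.9 CPM at 1.57 ng/L (log2 fold change 3.42 ± 0.46, adjusted p = 0.0224). In both, the lowest 6.22 ng/L library was above the highest 1.57 ng/L library. The transcript XM_021599798.1 had 600.1, 516 and 771 CPM at 6.22 ng/L, against 42.2, 68.5 and 44 CPM at 1.57 ng/L (log2 fold change 3.61 ± 0.26, adjusted p = 0.0141), and XM_021599796.1 had 807, 791 and 1081 CPM at 6.22 ng/L, against 129, 228 and 172 CPM at 1.57 ng/L (log2 fold change 2.34 ± 0.24, adjusted p = 0.0156). Again no library of one group overlapped the other. Both transcripts had 0 reads in all 3 solvent libraries, and at 1.13 ng/L XM_021599798.1 averaged 0.648 ± 0.548 CPM and XM_021599796.1 1.65 ± 1.41 CPM (SD, n = 3 each).

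**Figure D2:**
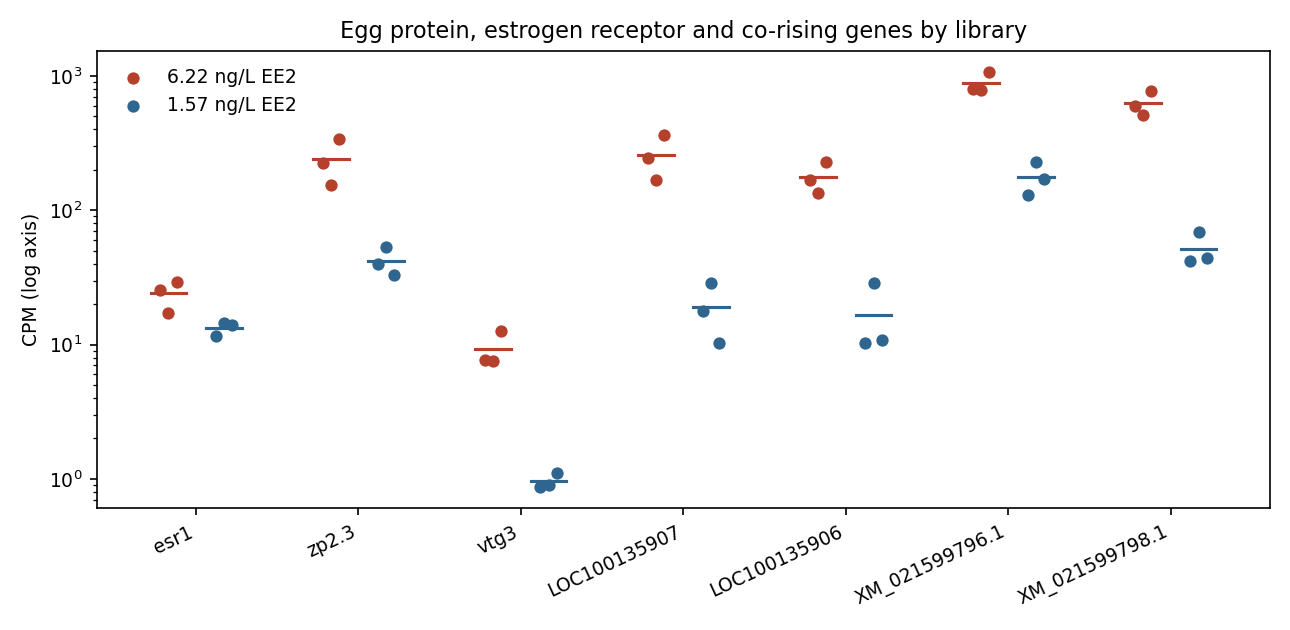
CPM by library on a log axis for esr1, zp2.3, vtg3 and 4 genes without a symbol, with 6.22 ng/L libraries in red to the left of 1.57 ng/L libraries in blue and bars at the mean of 3. No gene shown has overlapping groups, and esr1 shows the smallest distance, with means of 24.1 CPM at 6.22 ng/L and 13.3 CPM at 1.57 ng/L.

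Other genes known from the comparisons of EE2 with solvent were followed across the same step. The gene miox, which encodes the inositol-degrading myo-inositol oxygenase, had 40.5, 35 and 51.1 CPM at 6.22 ng/L, against 5.65, 15.7 and 10.4 CPM at 1.57 ng/L and rose (log2 fold change 1.99 ± 0.35, adjusted p = 0.0359). The gene fd6d, a fatty acid desaturase gene, rose as well, to 71 ± 12.9 CPM at 6.22 ng/L, against 39.4 ± 4.13 CPM at 1.57 ng/L (SD, n = 3 each, log2 fold change 0.85 ± 0.15, adjusted p = 0.0352). Neither gene's groups overlapped. The purine nucleoside phosphorylase gene pnp4b (log2 fold change 0.90, adjusted p = 0.143), the amino acid transporter slc6a14 (log2 fold change 0.77, adjusted p = 0.286), the lectin receptor cd209 (log2 fold change 0.22, adjusted p = 0.573), spp2 (log2 fold change 0.37, adjusted p = 0.423) and the T cell gene themis (log2 fold change -0.60, adjusted p = 0.162) did not pass. At 16.3 ng/L slc6a14 averaged 7.84 ± 2.64 CPM and cd209 35.8 ± 2.38 CPM, against 1.2 ± 0.429 and 15.1 ± 4.03 CPM at 6.22 ng/L (SD, n = 3 each).

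Collagen genes were lower at 6.22 ng/L. All 14 tested members had a log2 fold change below 0, 10 of them fell past the threshold and none rose, and their median was -1.28 beside 0.00 over all genes, where 2.88% fell. In 12 of the 14 every 6.22 ng/L library lay below every 1.57 ng/L library, and 32.1% of all tested genes had groups without overlap in one or the other direction. Type I collagen, the main fibre of bone and skin, was measured by 3 genes. The α1 chain gene col1a1 had 491, 375 and 376 CPM at 6.22 ng/L, against 1220.3, 1344 and 988 CPM at 1.57 ng/L (log2 fold change -1.52 ± 0.17, adjusted p = 0.018). Its second copy col1a1b had 750.0, 574 and 569.9 CPM at 6.22 ng/L, against 1833, 1889.9 and 1393 CPM at 1.57 ng/L (log2 fold change -1.43 ± 0.18, adjusted p = 0.0196). LOC100135811, whose synonym in the reference is col1a2, had 650.1, 512 and 478 CPM at 6.22 ng/L, against 1483, 1540.2 and 1186 CPM at 1.57 ng/L (log2 fold change -1.36 ± 0.17, adjusted p = 0.0196). The fitted levels at 6.22 ng/L were 0.35, 0.37 and 0.389 of those at 1.57 ng/L, and in each gene the groups were well apart. Trout carry duplicated genes, and estimated counts of near copies such as col1a1 and col1a1b can be split between them, so the copies are less certain one by one than together.

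The largest fall among collagens was that of col10a1a, which encodes type X collagen, a product of maturing chondrocytes and, in zebrafish, of osteoblasts. It had 48.5, 60.2 and 46.3 CPM at 6.22 ng/L, against 175, 187 and 171 CPM at 1.57 ng/L (log2 fold change -1.78 ± 0.12, adjusted p = 0.0137). The cartilage collagen gene col9a3 had 11.9, 14.2 and 15.1 CPM at 6.22 ng/L, against 32.4, 40.2 and 33.9 CPM at 1.57 ng/L (log2 fold change -1.37 ± 0.13, adjusted p = 0.0152), and the groups were apart in both genes. The fibril-associated collagen gene col21a1 also fell (log2 fold change -1.69 ± 0.23, adjusted p = 0.0227). So did col5a2a of the fibril-forming type V (log2 fold change -0.84 ± 0.08, adjusted p = 0.0152) and col8a2 of the short-chain type VIII (log2 fold change -0.49 ± 0.10, adjusted p = 0.048). Type XVII collagen anchors epidermal cells to the basement membrane, and its genes col17a1b (log2 fold change -1.05 ± 0.10, adjusted p = 0.0153) and col17a1a (log2 fold change -0.97 ± 0.19, adjusted p = 0.0451) fell too. The members that did not pass were col27a1b (log2 fold change -0.45), col9a1a (log2 fold change -0.38) and the basement membrane genes col4a3 (log2 fold change -1.32 ± 0.52) and col4a4 (log2 fold change -1.23 ± 0.96), whose errors were wide.

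Most of the summed level of the 14 collagen genes came from the 3 type I genes. Their means (col1a1, col1a1b, LOC100135811) were 414, 631 and 546 CPM at 6.22 ng/L, against 1184, 1705 and 1403 CPM at 1.57 ng/L. The summed level was 1694 to 2199 CPM at 6.22 ng/L, against 4193 to 5441 CPM at 1.57 ng/L. It was 1427 to 2158 CPM in solvent, 4139 to 6379 CPM at 1.13, 2043 to 3212 CPM at 16.3 and 1287 to 1878 CPM at 55.1 ng/L. The sums at 6.22 ng/L overlapped those in solvent, and the sums at 1.57 ng/L overlapped those at 1.13 ng/L. The solvent and 55.1 ng/L libraries had a constant effective-length gap, unlike the other groups, and its part in these levels was not tested. The 16.3 ng/L libraries had varying gaps with medians of 229 to 235.4 bases, close to those at 1.57 ng/L, and totals of 19679734 to 29635724, above every 6.22 ng/L library. Their collagen sums were below those of every 1.57 ng/L library. What part gap, depth, concentration or other differences between the groups had in these sums was not tested. With the length trend removed the collagen median was -1.21 and 9 members fell, and with all libraries thinned to one depth it was -1.29 with 10. With 1 library left out in turn the median ran from -1.34 to -1.12. The members that fell past the threshold numbered 4 without 6.22 ng/L C, 5 without B and 9 without A. They numbered 6 without 1.57 ng/L C, and 0 without 1.57 ng/L A or B.

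Other genes of cartilage and bone matrix showed the same direction. Of 19 tested, 10 fell and none rose, where 2.88% of all tested genes fell and 2.0% rose. The median was -0.79, and 2 of the 19 were above 0, where 49.6% of all genes were. The osteocalcin-like gene bglapl, a bone matrix protein gene, had 0.457, 0.998 and 0.642 CPM at 6.22 ng/L, against 6.51, 4.47 and 4.61 CPM at 1.57 ng/L (log2 fold change -2.88 ± 0.33, adjusted p = 0.0182). The ectonucleotidase gene entpd5a, which is needed for bone mineralisation in zebrafish, had 0.588, 0.499 and 0.642 CPM at 6.22 ng/L, against 2.6, 2.52 and 2.3 CPM at 1.57 ng/L (log2 fold change -2.09 ± 0.25, adjusted p = 0.0192). Both rested on few reads (32 and 26 in all at 6.22 ng/L, against 439 and 211 at 1.57 ng/L), and in both the groups did not overlap. The osteoblast transcription factor sp7 (osterix) averaged 4.93 ± 0.276 CPM at 6.22 ng/L, against 9.98 ± 2.06 CPM at 1.57 ng/L (SD, n = 3 each, log2 fold change -1.02 ± 0.17, adjusted p = 0.0323). The bone matrix genes spp1 (osteopontin, log2 fold change -1.19, adjusted p = 0.0244) and sparc (osteonectin, log2 fold change -0.69, adjusted p = 0.0391) fell as well.

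Among cartilage genes, matn3a (matrilin 3, a linker of cartilage fibres) had 1.44, 2.68 and 2.93 CPM at 6.22 ng/L, against 8.08, 13.8 and 8.75 CPM at 1.57 ng/L (log2 fold change -2.12 ± 0.33, adjusted p = 0.0279). The chondrocyte proteoglycan gene snorc averaged 1.41 ± 0.0976 CPM at 6.22 ng/L, against 5.34 ± 1.33 CPM at 1.57 ng/L (SD, n = 3 each, log2 fold change -1.91 ± 0.23, adjusted p = 0.0195). Every 6.22 ng/L library was below every 1.57 ng/L library in both. Chondromodulin (cnmd, log2 fold change -1.71, adjusted p = 0.0223), chondroadherin (chad, log2 fold change -1.41, adjusted p = 0.0244) and osteoglycin (ognb, log2 fold change -1.18, adjusted p = 0.0468) also fell. Aggrecan (acanb, log2 fold change -0.40, adjusted p = 0.254), comp (log2 fold change -0.08, adjusted p = 0.842), the link protein gene hapln1b (log2 fold change 0.25, adjusted p = 0.438), the chondrocyte transcription factor sox9 (log2 fold change -0.21, adjusted p = 0.569) and LOC100135781 (log2 fold change 0.10, adjusted p = 0.627), matched by a sox9 synonym, did not pass. The list's summed level was 382 to 445 CPM at 6.22 ng/L, against 576 to 703 CPM at 1.57 ng/L, and 339 to 440.1 CPM in solvent. Most of it at 6.22 and 1.57 ng/L came from sparc, with means of 249.8 and 404 CPM. With 1 library left out, at most 2 members passed (without 6.22 ng/L A), 1 without 6.22 ng/L B and none without 6.22 ng/L C or 1.57 ng/L A, B or C. The median stayed between -1.04 and -0.61. Fewer members passed than among the collagens, except without 1.57 ng/L A or B, where no member of either list passed.

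**Figure D3:**
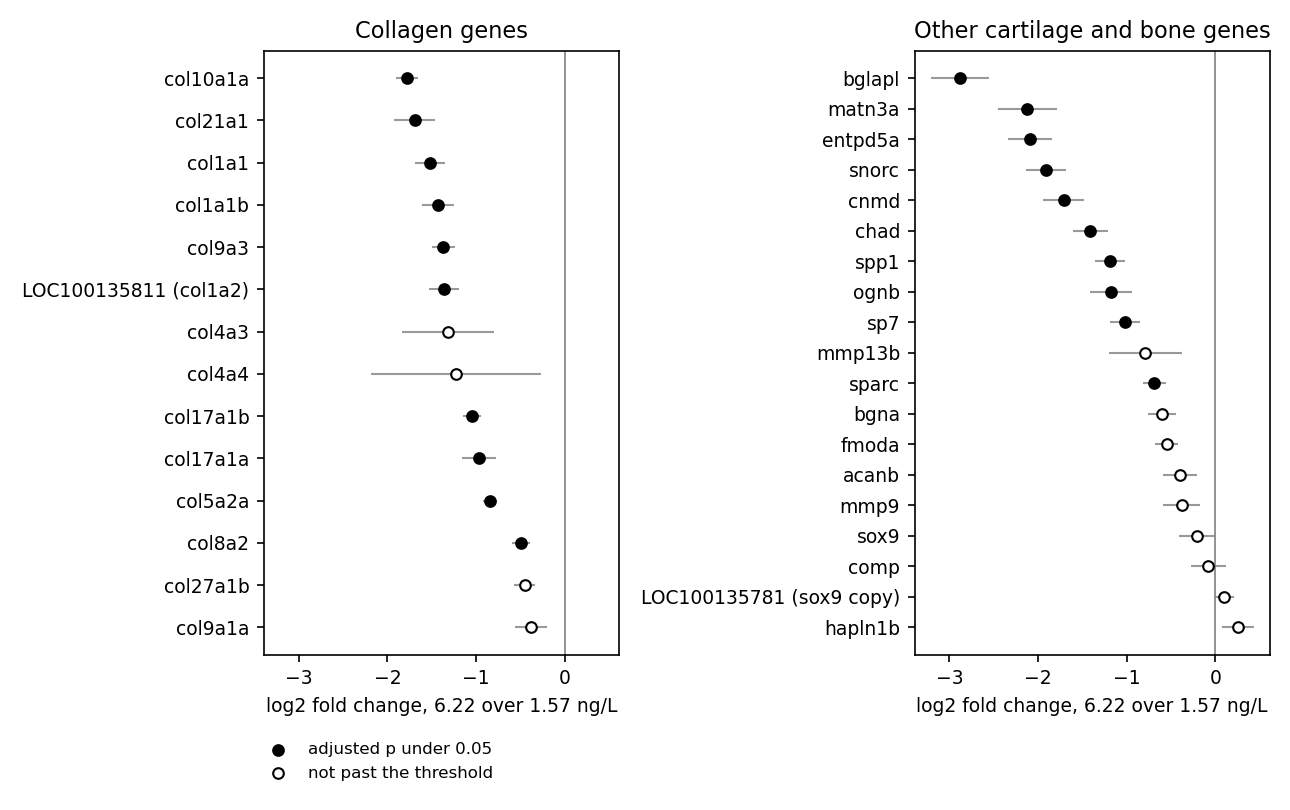
Log2 fold change (6.22 over 1.57 ng/L) with its standard error for each tested collagen gene (left) and each other cartilage or bone gene (right), filled where the adjusted p was under 0.05. All 14 collagens and 17 of 19 other genes lie left of 0.

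Of 34 tested genes in the lysosome list 5 fell, where 2.88% of all tested genes did, and 1 rose, a share near the 2.0% of all genes. That list was matched by symbol, also holds gba2, gba3 and npc1l1, and is not limited to lysosomal genes. The list's median was -0.16, beside 0.00 over all genes. The phospholipase gene pla2g15, which degrades phospholipids in lysosomes, had 58.6, 37 and 21.9 CPM at 6.22 ng/L, against 142, 155 and 113 CPM at 1.57 ng/L (log2 fold change -1.80 ± 0.34, adjusted p = 0.0407). The gene npc1, which encodes the membrane protein that passes cholesterol out of lysosomes, had 37.6, 38.1 and 31.1 CPM at 6.22 ng/L, against 70.5, 74.5 and 61.6 CPM at 1.57 ng/L (log2 fold change -0.95 ± 0.12, adjusted p = 0.0196). In both genes the groups were apart. The soluble partner of npc1 is npc2, which had 80.1, 80.5 and 89.4 CPM at 6.22 ng/L, against 98.4, 97.9 and 81.3 CPM at 1.57 ng/L, with overlapping groups (log2 fold change -0.15 ± 0.10, adjusted p = 0.438). The ganglioside activator gm2a (log2 fold change -0.96, adjusted p = 0.0192), cathepsin A (ctsa, log2 fold change -0.62, adjusted p = 0.0291) and the membrane protein lamp2 (log2 fold change -0.39, adjusted p = 0.0383) fell, and the proton pump subunit atp6v0ca rose (log2 fold change 0.50, adjusted p = 0.0357). For pla2g15 and npc1 the mean was highest at 1.13 ng/L (235 ± 20.6 and 116 ± 4.22 CPM), and solvent (64.9 ± 4.67 and 46.7 ± 2.57 CPM) lay between 6.22 (39.2 ± 18.5 and 35.6 ± 3.89 CPM) and 1.57 ng/L (137 ± 21.5 and 68.9 ± 6.61 CPM; SD, n = 3 each).

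In the list matched for liver and plasma proteins, 44 genes were tested, 3 fell and none rose, where 2.88% of all tested genes fell and 2.0% rose. The list's median was 0.06 and 23 of the 44 were above 0. Of the tested members, c31h4orf47, c3h2orf49, c3h2orf76, apobec2a and f11r.1 were taken in only for the shape of their symbols and are not plasma protein genes. The gene apoe, whose product carries lipid in plasma, had 26.4, 15.9 and 20.2 CPM at 6.22 ng/L, against 67.5, 64.8 and 53.1 CPM at 1.57 ng/L (log2 fold change -1.57 ± 0.20, adjusted p = 0.0198). The gene apoa-i-2, an apolipoprotein A-I gene, had 203, 116 and 76.2 CPM at 6.22 ng/L, against 498, 527 and 339 CPM at 1.57 ng/L (log2 fold change -1.79 ± 0.37, adjusted p = 0.0499). Neither showed overlap, though the apoa-i-2 libraries at 6.22 ng/L were themselves far apart. The other apolipoprotein genes of the list did not pass, and their log2 fold changes were -0.51 for apoa-i-1, -0.51 for apoba, -0.31 for apoc2, -0.18 for apoa2, 0.30 for apoc4, 0.42 for apom and 0.79 for apof. The antimicrobial peptide gene leap2 averaged 5.6 ± 0.211 CPM at 6.22 ng/L, against 16.4 ± 1.18 CPM at 1.57 ng/L (SD, n = 3 each, log2 fold change -1.55 ± 0.10, adjusted p = 0.0137). The summed level of the whole list was 3347 to 5158 CPM at 6.22 ng/L, against 5067 to 5191 CPM at 1.57 ng/L. The list's median turned to -0.19 without 6.22 ng/L replicate C and to -0.07 without 1.57 ng/L replicate B. With DESeq2, 5 members rose and 8 fell, where 3219 of all 42856 tested genes rose and 3276 fell.

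In the lens and eye list 17 genes were tested, 3 rose and 1 fell, where 2.0% of all tested genes rose and 2.88% fell, and the median was 0.09 (-0.04 without 1.57 ng/L replicate B). The 3 that rose are lens genes, and no photoreceptor gene of the list passed, a division of the list made after the values were seen. The γ-crystallin gene crygmxl2, one of the refractive proteins of the lens, had 41.7, 32.7 and 43 CPM at 6.22 ng/L, against 4.7, 6.95 and 8.91 CPM at 1.57 ng/L (log2 fold change 2.50 ± 0.24, adjusted p = 0.0153). A second crystallin gene, crygn2, had 114, 86.7 and 130.2 CPM at 6.22 ng/L, against 29.3, 40.9 and 41.4 CPM at 1.57 ng/L (log2 fold change 1.57 ± 0.20, adjusted p = 0.0201). Both showed a clear distance between the groups. The lens fibre membrane gene lim2.5 rose as well (log2 fold change 1.25 ± 0.22, adjusted p = 0.0353). Its relatives lim2.3 (log2 fold change 1.36, adjusted p = 0.0537), lim2.1 (log2 fold change 1.00, adjusted p = 0.0681) and lim2.2 (log2 fold change 0.61, adjusted p = 0.386) and the β-crystallin cryba1a (log2 fold change 1.08, adjusted p = 0.0752) did not pass. The groups did not overlap in any of the 4, where 32.1% of all tested genes had groups without overlap in one or the other direction. The genes lgsn and plaat1 are not on this list. Both were named only for being among the 10 largest rises with a symbol in these same 6 libraries. They therefore add no independent support for a rise of lens genes. The gene lgsn (lengsin, a lens protein) had 7.52, 4.93 and 7.49 CPM at 6.22 ng/L, against 1.24, 1.55 and 1.8 CPM at 1.57 ng/L (log2 fold change 2.11 ± 0.25, adjusted p = 0.0183). The gene plaat1, whose product degrades organelles in the zebrafish lens, had 3.33, 3.93 and 3.85 CPM at 6.22 ng/L, against 0.495, 0.816 and 0.888 CPM at 1.57 ng/L (log2 fold change 2.32 ± 0.29, adjusted p = 0.0196).

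For the retina, the rod pigment gene rho averaged 294 ± 63.5 CPM at 6.22 ng/L, against 275 ± 69.4 CPM at 1.57 ng/L (SD, n = 3 each, log2 fold change 0.09 ± 0.23, adjusted p = 0.849). The rod transducin gene gnat1 (log2 fold change -0.50, adjusted p = 0.299) and the cone phosphodiesterase gene pde6c (log2 fold change -0.04, adjusted p = 0.928) did not pass, and the one member that fell was rpe65a of the retinal pigment epithelium, with 9.61, 10.2 and 13.3 CPM at 6.22 ng/L, against 27.2, 20.8 and 19 CPM at 1.57 ng/L (log2 fold change -1.02 ± 0.18, adjusted p = 0.0366). The crystallin crygmxl2 averaged 19.8 ± 9.92 CPM in solvent, 18.5 ± 5.27 at 1.13 and 21.3 ± 7.31 at 16.3 ng/L (SD, n = 3 each), so that the 1.57 ng/L mean of 6.85 ± 2.11 CPM was the lowest of the 6 groups.

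Ribosomal protein genes and genes of the respiratory chain were mostly above 0 by small amounts. Of 38 tested genes matched as ribosomal protein genes 36 were above 0, where 49.6% of all tested genes were, and the median log2 fold change was 0.45. That list was matched by symbol and also holds the kinase gene rps6kb1a, which encodes no ribosomal protein. Past the threshold were 3, all higher, where 2.0% of all genes rose. These were rps28 (log2 fold change 0.78, adjusted p = 0.0407), rpl38 (log2 fold change 0.71, adjusted p = 0.0298) and rpl36a (log2 fold change 0.63, adjusted p = 0.0307), each a structural protein of the ribosome. The gene rps28 had 402, 320.0 and 446 CPM at 6.22 ng/L, against 245, 232 and 204 CPM at 1.57 ng/L, with no overlap. Of 32 genes matched for the respiratory chain 30 were above 0 (median 0.25), and ndufa1 of complex I (log2 fold change 0.62, adjusted p = 0.0344) and atp5mpl of the ATP synthase (log2 fold change 0.64, adjusted p = 0.0322) rose, which is 2 of the 32. The 32 include genes of assembly factors and inhibitors, such as ndufaf1 and atp5if1a. With DESeq2 26 ribosomal and 11 respiratory genes were higher, where 3219 of all 42856 tested genes were.

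These are short transcripts, and length moved with the comparison. The median length was 750 bases in the ribosomal and 808 bases in the respiratory list. Over all genes the median log2 fold change was 0.06 for transcripts under 500 bases, 0.10 from 500 to 1000 and -0.05 above 5000 bases. Of the 646 tested genes under 500 bases 46 rose and 6 fell, which is 8.05% called. Over all tested genes 4.88% were called, 2.0% higher and 2.88% lower. With the length trend removed the medians were 0.39 and 0.21, and the numbers of risen members were 3 and 2. Removing it changed the split of all calls to 1000 higher and 1131 lower (46.9% higher, against 40.9%).

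**Figure D4:**
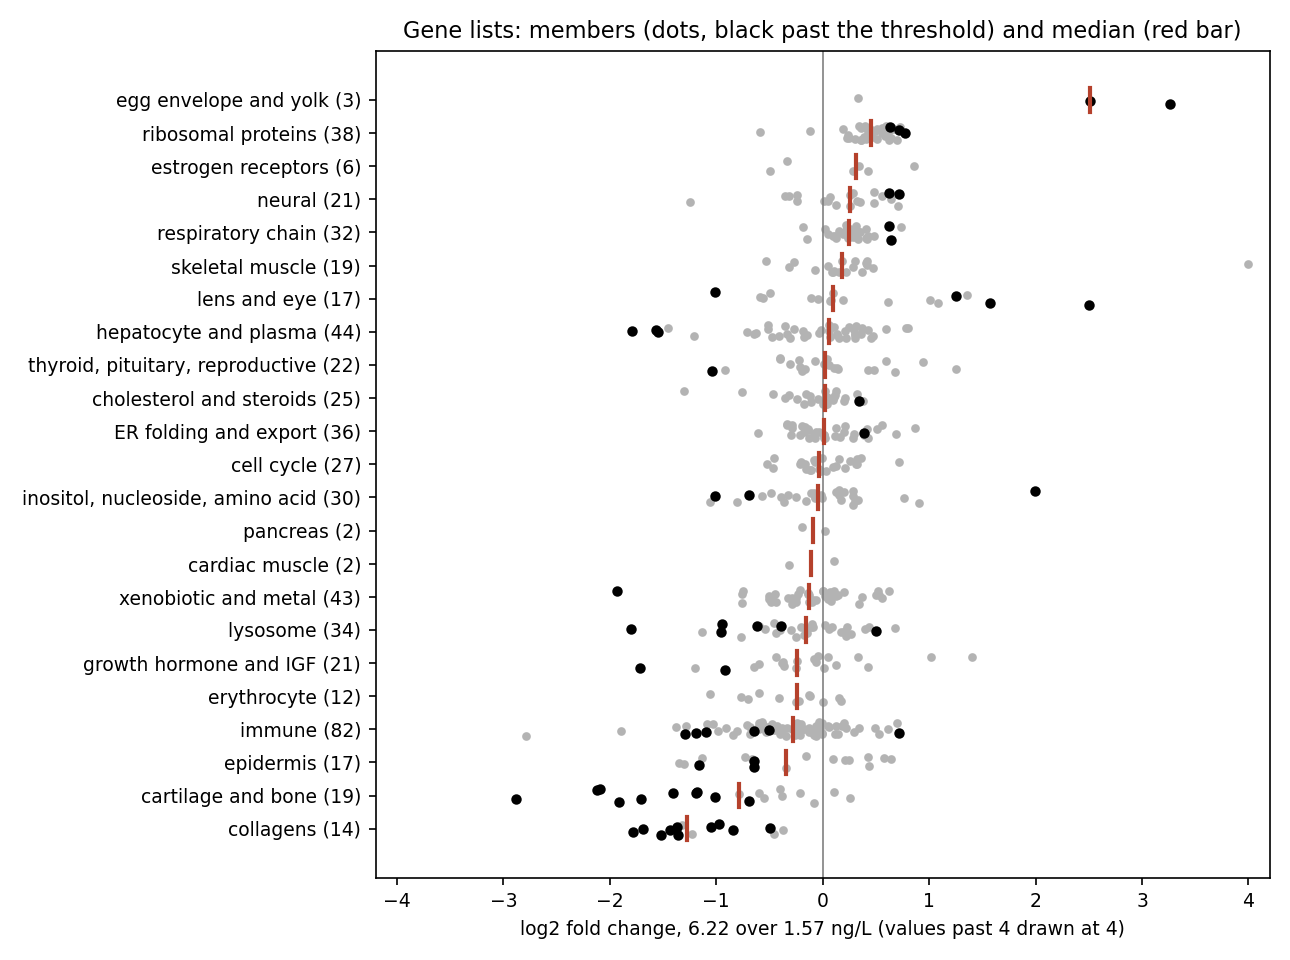
Log2 fold change (6.22 over 1.57 ng/L) of every tested member of 23 gene lists, with the number tested after the name, black dots past the adjusted p of 0.05 and a red bar at the median. Collagens (-1.28) and cartilage and bone genes (-0.79) have the lowest medians and egg genes (2.51) the highest, and the skeletal muscle dot drawn at 4 is pvalb1 at 6.39, which did not pass.

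The falls with a symbol also held genes outside these lists. The cytochrome gene cyp1a3, a target of the aryl hydrocarbon receptor that metabolises planar aromatic compounds, had 7.52, 6.55 and 4.92 CPM at 6.22 ng/L, against 24.6, 28 and 20.4 CPM at 1.57 ng/L (log2 fold change -1.93 ± 0.19, adjusted p = 0.0153). It was the one of 43 tested xenobiotic and metal response genes to pass, a smaller share than the 4.88% of all tested genes, and the median of the list was -0.13. The gene styk1b, a kinase-like gene, had 1.05, 0.998 and 0.428 CPM at 6.22 ng/L, against 4.58, 3.88 and 4.3 CPM at 1.57 ng/L (log2 fold change -2.35 ± 0.34, adjusted p = 0.0244). The uricase pathway gene urahb averaged 1.35 ± 0.31 CPM at 6.22 ng/L, against 5.1 ± 0.544 CPM at 1.57 ng/L (SD, n = 3 each, log2 fold change -1.91 ± 0.23, adjusted p = 0.0192). The endolysosomal cation channel gene tpcn2 (log2 fold change -1.91, adjusted p = 0.0328), the tight junction gene tjp2a (log2 fold change -1.86, adjusted p = 0.0457) and a gene known only by a zmp identifier (log2 fold change -2.12, adjusted p = 0.0152) completed the 10 falls of largest size past the threshold at a mean of at least 1 CPM. A lack of overlap between the groups was a condition of this choice. Among the 10 largest rises were also the calcium channel subunit cacnb1 (log2 fold change 1.45, adjusted p = 0.0477), zgc:112285 (log2 fold change 1.52, adjusted p = 0.0396) and si:dkey-250l23.4 (log2 fold change 2.07, adjusted p = 0.0468).

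Over the other groups of the series, the genes that were called sat unevenly. At a mean of at least 1 CPM, the solvent mean was nearer to the 6.22 than to the 1.57 ng/L mean in 77.8% of 836 higher and 88.0% of 1164 lower genes, beside 61.4% of all 37499 genes. For 1.13 ng/L the shares were 12.7% and 3.26% (26.7% of all genes), for 16.3 ng/L 31% and 60.1% (46.8%) and for 55.1 ng/L 92.8% and 90.8% (65.6%). These shares are a description with no test, and they carry the difference in effective-length gaps of the solvent and 55.1 ng/L libraries. Depth differed between the groups as well. Totals were 12658946 to 17076432 estimated counts in solvent and 13013502 to 16122131 at 55.1 ng/L, below every 1.57 ng/L library. They were 26160497 to 28166132 at 1.13 ng/L and 19679734 to 29635724 at 16.3 ng/L, above every 6.22 ng/L library. The part of depth in these shares was not tested. Individual genes differed in their order: zp2.3 averaged 0.0434 ± 0.0381 CPM in solvent, 1.39 ± 0.793 at 1.13, 567 ± 50.7 at 16.3 and 687 ± 109 at 55.1 ng/L, while cyp1a3 averaged 10.1 ± 3.17 in solvent, 16.8 ± 4.02 at 1.13, 9.34 ± 1.66 at 16.3 and 6.39 ± 0.643 at 55.1 ng/L (SD, n = 3 each). For miox the mean was 43 ± 8.96 CPM at 16.3 and 46.1 ± 6.55 at 55.1 ng/L, and the 6.22 ng/L mean of 42.2 ± 8.19 CPM lay within 1 SD of both.

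**Figure D5:**
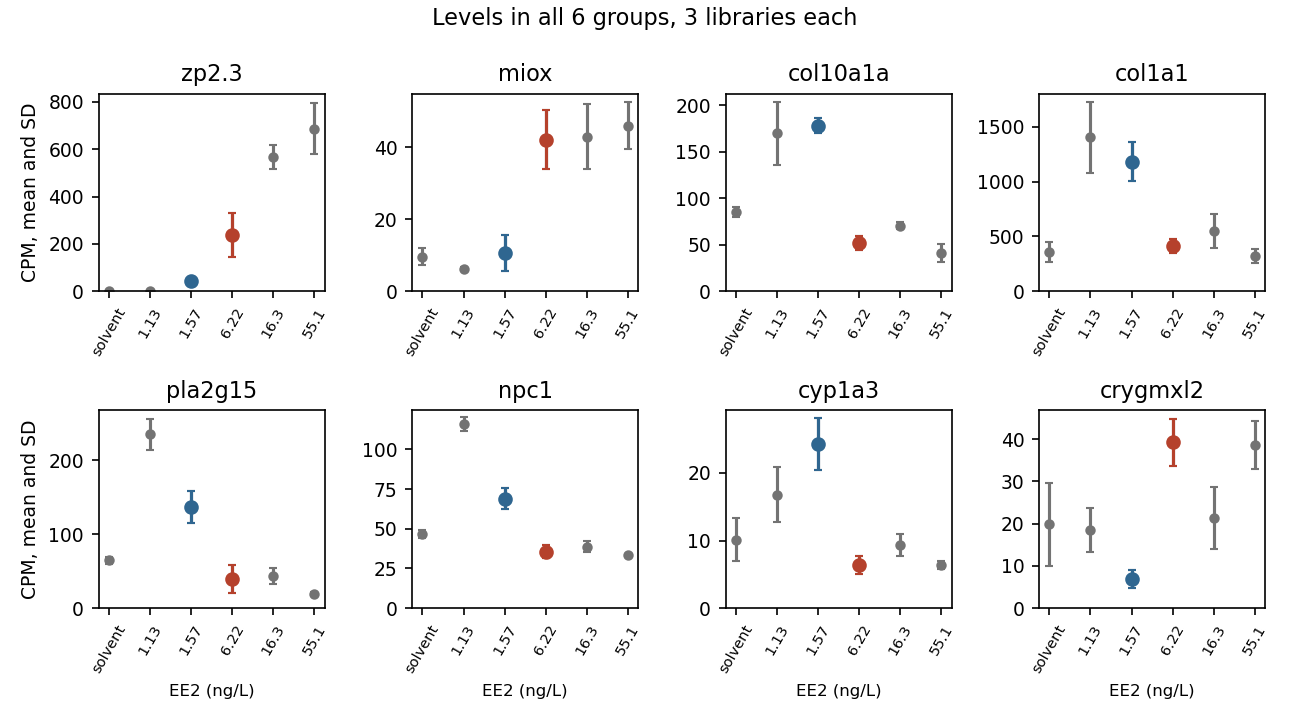
Mean and SD of CPM (3 libraries each) for 8 genes in solvent and at 1.13 to 55.1 ng/L EE2, with 6.22 ng/L in red and 1.57 ng/L in blue. The means of zp2.3 climb through the concentrations, miox is level from 6.22 ng/L on, and col10a1a, col1a1, pla2g15, npc1 and cyp1a3 are higher at 1.13 and 1.57 ng/L than in the other groups.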

How the data were processed

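The submitters' processing notes name Trimmomatic 0.38 (trimming), kallisto (quantification) and DESeq2. The genome build is not given in the sources used here. Each deposited table lists 79244 RefSeq transcripts with the authors' estimated counts, lengths and effective lengths, per the file headers. The authors' tables of each concentration against solvent were not used, and TPM was not used.

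Gene names came from RefSeq's genes of assembly USDA_OmykA_1.1, joined on the accession with its version left off. This joined 42410 transcripts (53.5%), 1083 of them at an equal version. Counts were summed by gene and rounded, which gave 61973 features (25139 gene sums, 6932 of them with a symbol, and 36834 single transcripts). The 6 libraries were filtered (filterByExpr), TMM-scaled and tested by quasi-likelihood in edgeR 4.0.16 (R 4.3.3) with 4 residual degrees of freedom. P-values were adjusted by Benjamini-Hochberg over every tested gene, and 0.05 was the threshold. DESeq2 1.42.0 was one of 15 alternatives, as were thinning and removal of a length trend. Levels are CPM on the TMM scale.

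The comparison and the 23 gene lists, matched by symbol or synonym (which also lets in genes by the shape of a symbol alone), were chosen with earlier results of these data known. Named were the 10 largest rises and falls with a symbol and 5 each without (mean of at least 1 CPM, no overlap of the groups), all tested egg and estrogen receptor genes, up to 3 called per direction in the other lists, and 10 genes known from comparisons with solvent. Added after values were seen were 4 genes without a symbol and all collagen, cartilage and bone, lysosome, and lens and eye genes. On simulated counts (41177 genes), 67, 67 and 66 genes were changed by 1.5-, 2- and 4-fold. The test recovered 1.49%, 13.4% and 57.6% of these, with 4 false calls. Where a group had 0 reads, folds use a floor of 3 reads over the group, which covers counting error only.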

Additional observations from a re-analysis of the deposited data

How the results depend on the processing

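Against 2090 genes (855 higher and 1235 lower), DESeq2 called 6495 genes (3219 higher and 3276 lower), the model of all 18 libraries 5106 genes (2252 higher and 2854 lower), the model of the 12 libraries from 1.13 to 16.3 ng/L, chosen after the data were seen, 4264 genes (1843 higher and 2421 lower), the fit without a filter on low counts 1332 genes (505 higher and 827 lower) and the fit on single transcripts 481 genes (181 higher and 300 lower). The last shared 208 genes with the 2090. Other size factors gave 2061 genes (869 higher and 1192 lower), thinning to one depth 1906 genes (770 higher and 1136 lower) and removal of the length trend 2131 genes (1000 higher and 1131 lower). With 1 library left out, 0 to 668 genes passed, 0 to 208 higher and 0 to 460 lower. The replicate block called 0 genes (0 higher and 0 lower; 8414 at an unadjusted p under 0.05, smallest adjusted p 0.076 by edgeR, 2 residual degrees of freedom). Same-letter libraries did not deviate together (correlations of -0.01, -0.024 and -0.022 for A, B and C), so no shared effect of a letter was visible. Whether the letters pair samples by tank or batch is not stated, and these correlations cannot settle it. The cause of these changes in number was not tested. None of the 83 named genes past the threshold changed sign under any alternative. They were picked through their calls in these same 6 libraries, so a kept sign adds no independent support. On counts simulated at the depth and group size of the 6 libraries, 13.4% of 2-fold changes were recovered, so changes of that size could be missed. Only 67, 67 and 66 genes were changed there (1.5-, 2- and 4-fold), against 2090 calls here. Fewer changed genes make the adjusted threshold stricter, so the recovered share does not carry over to this comparison.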

Other observations

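The remaining lists held few genes past the threshold, and their counts stand beside 2.88% lower and 2.0% higher over all tested genes, with 49.6% above 0. Of 17 tested genes in the epidermis list 3 fell (median -0.34): the tight junction gene cldn1 (log2 fold change -1.17, adjusted p = 0.0255), the secretory gene agr2 (log2 fold change -0.64, adjusted p = 0.0273) and anxa13l (log2 fold change -0.65, adjusted p = 0.0411). That list was matched by symbol, holds many claudin genes and krtcap2, and is not limited to genes of the epidermis. Of 21 tested growth hormone and IGF genes 2 fell, the binding proteins igfbp7, with 4.64, 3.18 and 2.78 CPM at 6.22 ng/L, against 12, 11.9 and 11 CPM at 1.57 ng/L (log2 fold change -1.71 ± 0.20, adjusted p = 0.018), and igfbp5 (log2 fold change -0.92, adjusted p = 0.0193). Of 82 tested immune genes 67 were below 0 (median -0.28), 5 fell and 1 rose, where 2.88% of all tested genes fell and 2.0% rose. Among the 5 that fell was the chemokine ccl25a (log2 fold change -1.30, adjusted p = 0.0239). The C1q-related genes c1qtnf1 (log2 fold change -1.09, adjusted p = 0.0375), c1qtnf6a (log2 fold change -0.65, adjusted p = 0.0224) and c1qtnf4 (log2 fold change 0.72, adjusted p = 0.0428), the one that rose, were taken in only for the shape of their symbols. Among 22 tested thyroid, pituitary and reproductive genes (median 0.03), only the prolactin receptor prlra passed, and it fell (log2 fold change -1.04, adjusted p = 0.0488). Among 30 tested inositol, nucleoside and amino acid genes (median -0.05), miox rose and 2 fell. These 2 were glulb (glutamine synthetase, log2 fold change -1.01, adjusted p = 0.0227) and asns (asparagine synthetase, log2 fold change -0.69, adjusted p = 0.0165). Among 21 tested neural genes (median 0.26), 2 rose and none fell. They were chga (log2 fold change 0.62, adjusted p = 0.0378) and syt12 (log2 fold change 0.71, adjusted p = 0.0293), both of secretory vesicles. Only fdft1 of cholesterol synthesis (log2 fold change 0.34, adjusted p = 0.0481) passed among 25 tested cholesterol and steroid genes (median 0.03). Only sdf2l1 (log2 fold change 0.39, adjusted p = 0.041) passed among 36 tested genes of folding and export in the endoplasmic reticulum (median 0.01). Both of these rose. By edgeR no gene passed among 19 skeletal muscle, 2 cardiac muscle, 12 erythrocyte, 27 cell cycle and 2 pancreas genes, where 7, 0, 2, 4 and 0 had an unadjusted p under 0.05 and DESeq2 called 3, 0, 2, 4 and 0. Of all 42856 tested genes, 10213 had an unadjusted p under 0.05 by edgeR, and DESeq2 called 6495.

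The largest fold changes without a symbol were of features with 0 reads in one group. There were 89 called features with 0 reads in all 3 libraries at 6.22 ng/L, 75 of them single transcripts, and 30 with 0 reads at 1.57 ng/L, 29 of them single transcripts. Such features passed the filter on low counts through the other group alone, and the 1.57 ng/L libraries were the deeper ones. How many tested features in all had 0 reads in a group was not counted, and the part of depth in these numbers was not tested. XM_021603013.1 had 0 reads at 6.22 ng/L, against 52.8, 55.3 and 32.1 CPM at 1.57 ng/L, and was at least 747-fold lower. Its mean at 1.13 ng/L was 117 ± 11.8 CPM (SD, n = 3) and in solvent 3.92 CPM. The other falls of this kind were XM_021618538.1 (at least 199-fold), LOC118936301 (at least 149.7-fold), XM_021605732.1 (at least 136-fold) and XM_021556596.1 (at least 136-fold). XM_021587402.1 had 18.7, 5.68 and 19.3 CPM at 6.22 ng/L, against 0 reads at 1.57 ng/L, and was at least 372-fold higher. The other rises were XM_021582602.1 (at least 167-fold), XR_002472387.1 (at least 154-fold), XM_021576750.1 (at least 122-fold) and XM_021591321.1 (at least 109.7-fold). In the order named, the means of these 5 rises were 6.42, 17.4, 5.19, 1.34 and 1.43 CPM in solvent. They were 0, 0.349, 0, 0.281 and 0.633 CPM at 1.13 ng/L. At 16.3 ng/L they were 0, 1.82, 0, 1.15 and 0 CPM, and at 55.1 ng/L 6.57, 1.56, 5.45, 2.31 and 1.31 CPM. In each, solvent lay above 1.13 ng/L and 16.3 ng/L below 6.22 ng/L, so none climbed steadily with concentration. A transcript can gain or lose reads to a near-identical copy in this kind of counting, and whether that happened here was not tested.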
